A study of Homo sapiens with 15 samples.

Results

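The histone cluster genes encode the proteins around which DNA is wound. The core histones H2A, H2B, H3 and H4 form the nucleosome, and the linker histone H1 binds the DNA between nucleosomes and compacts the fiber. Most of these genes lie close together in a few clusters, have no introns, and are transcribed mainly in S phase, when newly copied DNA needs new histones. Their mRNAs usually end in a stem-loop in place of a poly(A) tail, and the stem-loop binding protein SLBP guides their processing and translation. CtBP2, the protein targeted in the study, is a transcriptional corepressor that recruits chromatin-modifying complexes and that binds NADH.

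The members were all probes for genes whose name on the array begins with HIST1H, HIST2H, HIST3H or HIST4H. They came to 83 of 41000 gene probes and 65 of 30982 gene names. There were 6 H1, 15 H2A, 17 H2B, 13 H3 and 14 H4 genes. By cluster, 54 were HIST1 genes on chromosome 6, 7 were HIST2, 3 were HIST3 and 1 was the HIST4 gene. The array carries older names, and all 65 were matched to a current symbol.

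RNA came from MDA-MB231 cells, a line derived from a triple-negative breast cancer, on 15 two-color arrays with 5 biological replicates for each of 3 treatments. The shCtBP2 cells stably expressed a short hairpin RNA against CtBP2, without exposure to an inhibitor. HIPP, sodium 2-hydroxyimino-3-phenylpropanoate, and P4, sodium 2-hydrazone-3-phenylpropanoate, are small-molecule CtBP2 inhibitors that differ in carrying an oxime or a hydrazone group, and each was given to the cells for 24 h. The labels do not give the doses used for the arrays. Treated RNA was in the Cy5 channel and control RNA in the Cy3 channel of every array, so a log2 ratio tested against 0 can include a dye effect of the probe. The labels name untreated cells as control throughout, whereas the methods describe a scrambled control for shCtBP2 cells, and neither states if the same control extract went on several arrays. If so, the ratio against 0 leaves out the spread of the control, and the 3 treatments are then not independent of each other.

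The mean log2 ratio of CTBP2, the targeted gene, was −0.41 ± 0.11 on the 5 shCtBP2 arrays (SD, adjusted p = 0.0595 in limma), or 75.4% of the control signal. It was lower on 5 of 5 arrays, in the direction of the label, and did not pass the adjusted threshold. CTBP2 was higher with HIPP, at 0.57 ± 0.36 (SD, n = 5, adjusted p = 0.00256 in limma), and at 0.17 ± 0.35 with P4 (SD, n = 5, adjusted p = 0.344 in limma). Depending on the array, 64.9 to 81.0% of gene spots stood well above background in the control channel and 65.2 to 77.5% in the treated channel, and none was saturated. Of the 5 genes listed as markers of these cells (VIM, CD44, KRT18, CAV1, AXL), 5 were above background in the control channel of all 15 arrays. Of the 4 listed as absent or low, PGR and CDH1 were above background on 0 arrays, ESR1 on 11 and ERBB2 on 15. Among 6 markers of other cell types, ALB was above background on 0 arrays, PTPRC on 1 and PECAM1 on 15. In the correlation of all gene ratios between replicate arrays, r ran from 0.30 to 0.57 for shCtBP2, from 0.42 to 0.75 for HIPP and from 0.012 to 0.70 for P4.

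Upstream sequence differed by histone type. In the 250 bases before and 50 bases after the start, which RefSeq (GRCh38.p14) gives for 60 of the 65 genes, the octamer ATTTGCAT on either strand occurred in 13 of 17 H2B genes and 11 of 14 H2A genes. It occurred in 1 of 11 H3 genes, in 0 of 6 H1 genes, in 0 of 12 H4 genes and in 2.19% of all 27305 genes with such a sequence. The letters AAACACA, known as the AC box of H1 promoters, occurred in 6 of 6 H1 genes and in 6.94% of all genes. CCAAT occurred in 51 of 60 histone genes, with 3 of 12 for H4, and in 39.7% of all genes. TATAA occurred in 56 of 60 and in 24.2%. A match shows only that these letters stand in the window.

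The promoters of HIST1H2BK and HIST1H2BB (2 H2B genes lower with both inhibitors) and of HIST1H1C and HIST1H1D (the H1 genes that passed the adjusted threshold in shCtBP2 cells) are given because the results below turn on these genes. Each is the 150 bases that end just before the start, read 5′ to 3′ on the gene's strand, with the octamer in capitals for H2B and AAACACA in capitals for H1. HIST1H2BK has 2 starts in the reference table, of which 1 is shown. All 4 lie on the minus strand of chromosome 6 in GRCh38.p14, at chr6:27146856-27147005, chr6:26043714-26043863, chr6:26056471-26056620 and chr6:26234988-26235137 in this order.
HIST1H2BK: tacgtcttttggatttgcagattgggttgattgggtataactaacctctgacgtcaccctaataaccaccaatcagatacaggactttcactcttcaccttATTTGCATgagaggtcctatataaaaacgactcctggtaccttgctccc
HIST1H2BB: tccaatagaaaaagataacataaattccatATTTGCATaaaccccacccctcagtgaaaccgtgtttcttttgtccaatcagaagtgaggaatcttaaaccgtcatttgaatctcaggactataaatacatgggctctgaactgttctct
HIST1H1C: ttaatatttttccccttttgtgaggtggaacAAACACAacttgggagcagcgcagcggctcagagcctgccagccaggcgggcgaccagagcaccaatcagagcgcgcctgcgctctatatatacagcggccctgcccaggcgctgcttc
HIST1H1D: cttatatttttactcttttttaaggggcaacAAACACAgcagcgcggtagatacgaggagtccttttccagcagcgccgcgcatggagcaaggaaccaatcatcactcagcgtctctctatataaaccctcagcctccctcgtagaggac

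Of the 83 probes, 26 share an unbroken run of at least 20 bases with a probe of another histone gene. The next 4 probes, all for H2B genes, show this, with the run that each pair shares in capitals. The first pair shares 41 of 60 bases although HIST1H2BN lies on chromosome 6 (chr6:27914524-27914583, plus strand, hg17) and HIST2H2BE on chromosome 1 (chr1:146671103-146671162, minus strand). The second pair, at chr6:26308082-26308141 (plus strand) and chr6:27883265-27883324 (minus strand), shares 35 bases.
HIST1H2BN: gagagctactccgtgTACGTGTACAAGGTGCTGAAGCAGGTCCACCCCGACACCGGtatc
HIST2H2BE: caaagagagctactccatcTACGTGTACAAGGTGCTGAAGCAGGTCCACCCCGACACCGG
HIST1H2BF: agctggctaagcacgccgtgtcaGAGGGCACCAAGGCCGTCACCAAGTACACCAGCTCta
HIST1H2BL: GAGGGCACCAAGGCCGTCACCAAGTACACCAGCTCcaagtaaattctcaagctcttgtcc
Such probes can bind the mRNA of more than 1 gene, and the ratios of these genes are not independent readings. The probe of HIST1H2BK shares at most 8 bases in a row with any other histone probe, that of HIST1H1C 11 and that of HIST1H3F 26.

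Most histone genes gave a signal well above background, which does not show which gene the signal came from. Of the 65, 56 were well above background on all 15 arrays in both channels. HIST1H1A, HIST1H1B, HIST1H1T, HIST1H2AL, HIST1H2BA and HIST1H4G were not well above background on any array, and HIST1H2AA, HIST1H3I and HIST1H4E were on some. The filter on variability, which drops the least variable 11% of genes by interquartile range, kept all 65 for shCtBP2, 43 for HIPP and 57 for P4. The 22 genes removed for HIPP were 1 H1, 5 H2A, 3 H2B, 5 H3 and 8 H4 genes. The 8 removed for P4 were 3 H2B and 5 H3 genes.

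Few histone genes were differentially expressed, which here means a limma adjusted p under 0.05 together with the study's fold-change thresholds of 1.5 for shCtBP2, 2.5 for HIPP and 1.8 for P4. In shCtBP2 cells 1 of 65 passed (1.54%, against 6.55% of all genes tested), and it was HIST1H1C, which rose. With HIPP 1 of 43 passed (2.33%, against 7.04%), and it was HIST1H2BK, which fell. With P4 3 of 57 passed (5.26%, against 8.46%), and HIST1H1C, HIST1H2BK and HIST1H3F fell. Each share was below that of all genes. With the methods' t-test in place of limma, HIST1H1C was called in shCtBP2 cells and HIST1H2BK with either inhibitor, but not HIST1H1C or HIST1H3F with P4.

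At the adjusted threshold alone, without a fold-change threshold, more histone genes were lower than higher with the inhibitors, and those that passed in shCtBP2 cells were higher. In shCtBP2 cells 3 of 65 were higher (4.62%, against 6.58% of all genes) and 0 were lower (against 6.92%). Before adjustment, 15 were higher and 0 lower at p under 0.05, and the methods' t-test with adjustment called 2. No share of all genes is given beside counts by unadjusted p or by that test, here or below. Such counts therefore do not show if histone genes differ from other genes. In shCtBP2 cells 5 other genes passed with slide as a block. HIST3H3, HIST1H3C and HIST1H3I were higher, and HIST2H2AC and HIST1H1B, the latter not well above background on any array, were lower. With HIPP 2 of 43 were higher (4.65%, against 24.9%) and 17 were lower (39.5%, against 23.9%). With P4 0 of 57 were higher (against 17.0%) and 22 were lower (38.6%, against 14.8%), of which 2 passed with slide as a block, HIST1H1C and HIST1H2BK. Of the 19 that passed with HIPP, 15 also passed with the block. Before adjustment P4 likewise gave 0 higher, with 35 lower, and the methods' t-test called 7 in all, again without a share of all genes beside them. The median log2 ratio over the 65 genes was 0.14 in shCtBP2 cells (0.04 over all genes tested), −0.14 with HIPP (0.08) and −0.36 with P4 (0.11).

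**Figure D1:**
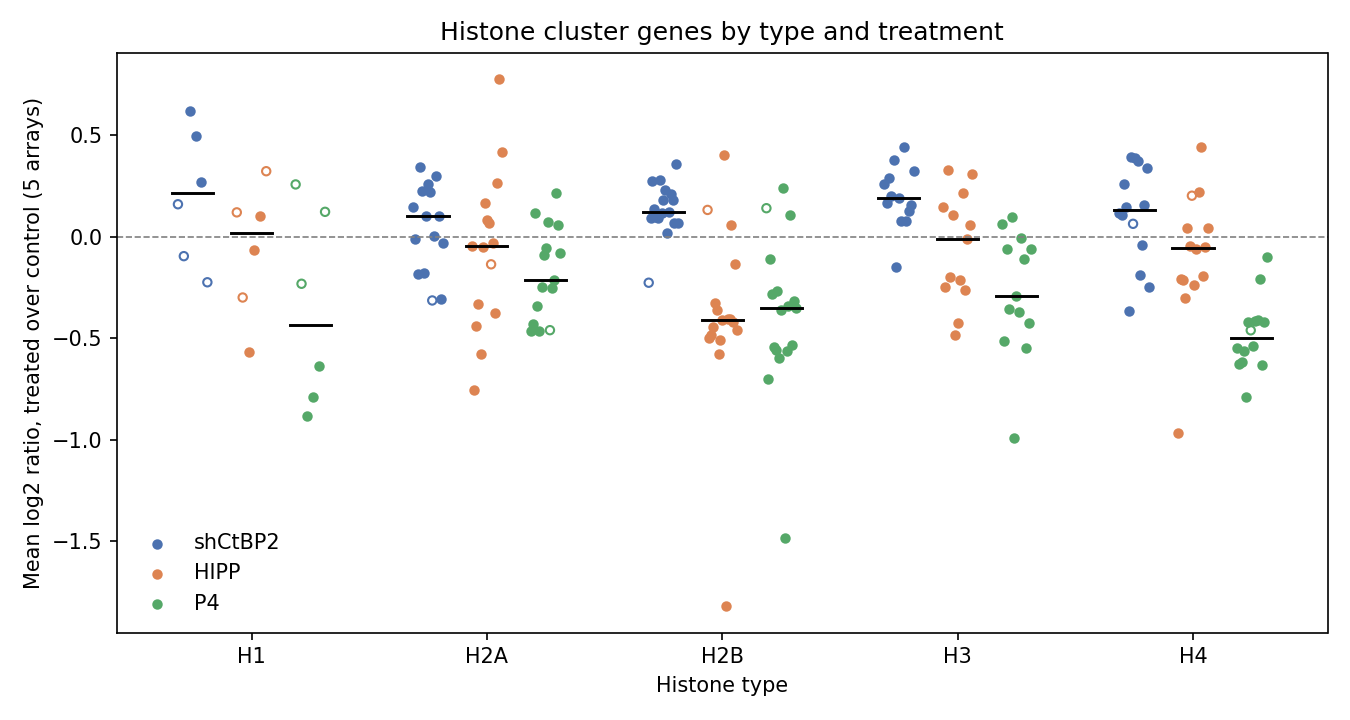
Mean log2 ratio of treated over control signal for each of the 65 histone cluster genes, by histone type (horizontal axis) and treatment (color), with a bar at the median of each type and hollow points for the 6 genes above background on no array. The H2B medians lie at 0.12 for shCtBP2, −0.41 for HIPP and −0.35 for P4, and HIST1H2BK is the lowest point.

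By type, the median in shCtBP2 cells was 0.22 for H1, 0.10 for H2A, 0.12 for H2B, 0.19 for H3 and 0.13 for H4. The 5 medians all lay above 0, but with slide as a block those of H1 (−0.17), H2A (−0.34), H2B (−0.0058) and H4 (−0.44) lay below it and H3 alone stayed above (0.26). With HIPP they were 0.02 for H1, −0.05 for H2A, −0.41 for H2B, −0.01 for H3 and −0.06 for H4, with H2B the lowest of the 5. The sign of the HIPP median of H2A and H3 changed with normexp correction and loess normalization (0.06 and 0.01), and that of H1 when arrays were centered on their median (−0.64). With P4 the medians were −0.43 for H1, −0.21 for H2A, −0.35 for H2B, −0.29 for H3 and −0.50 for H4. Blocking on slide, the P4 medians of H2B (−0.25) and H3 (−0.47) stayed below 0, and those of H1 (0.29), H2A (0.22) and H4 (0.05) lay above it. The HIPP medians of H3 (0.10) and H4 (0.02) also turned, and that of H2B was −0.44. In this block P4 is tied to the other treatments only through slide 2, which held 1 P4 array, replicate 5. Median centering moved the median of all genes with P4 by −0.10, and the share of called genes that were higher with P4 from 50.8% to 39.4%.

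Most H2B genes were lower with the inhibitors. Of 14 tested with HIPP, 11 were lower at the adjusted threshold (78.6%, against 23.9% of all genes) and 0 were higher. Of 14 tested with P4, 11 were lower (78.6%, against 14.8%) and 0 were higher. In shCtBP2 cells 0 of 17 passed in either direction, with 3 higher at an unadjusted p under 0.05 and 0 by the methods' t-test. The sets were not the same, since the filter left out HIST1H2BE, HIST1H2BF and HIST1H2BN for HIPP and HIST1H2BC, HIST1H2BG and HIST1H2BN for P4. With the methods' t-test 2 H2B genes passed with HIPP and 4 with P4, and 3 passed with HIPP after normexp correction and loess. With slide as a block, the 11 genes lower with HIPP all passed, and P4 gave 1. Of the 6 markers of other cell types, PECAM1 and HBB were also lower with either inhibitor at the adjusted threshold and 0 passed in shCtBP2 cells. HBB was above background on only 4 arrays in the control channel and 1 in the treated channel. PECAM1, an endothelial and blood cell adhesion molecule, was at −1.95 with HIPP and −0.74 with P4, on 5 of 5 arrays each. The summed signal of the 6 markers ran from 160.0 to 285 in the control channel and from 89.3 to 216 in the treated channel on HIPP arrays, and from 102 to 231 and from 85.5 to 185 on P4 arrays. On shCtBP2 arrays it ran from 85.2 to 142 and from 87.3 to 161. Of the markers of these cells, CAV1 (−2.07 and −1.38) and AXL (−1.05 and −0.75) were lower with HIPP and P4, and CD44 was higher (263% and 137% of control). CAV1 was also lower in shCtBP2 cells (−0.48, adjusted p = 0.00834 in limma). ERBB2, listed as absent or low, was higher in shCtBP2 cells (0.36, adjusted p = 0.0127 in limma) and with P4 (0.36, adjusted p = 0.00553 in limma). Their part in the histone ratios was not tested.

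HIST1H2BK had the lowest ratio of all 65 genes with either inhibitor. Its single probe lies on chromosome 6 from 27221897 to 27221956 (hg17, minus strand). With HIPP its log2 ratios on replicates 1 to 5 were −1.44, −1.77, −1.66, −1.69 and −2.54, and with P4 they were −1.73, −1.91, −1.20, −1.40 and −1.18. In shCtBP2 cells they were 0.35, 0.02, 0.17, −0.45 and −0.01. The arrays of both inhibitors all lay below those of shCtBP2, and the shCtBP2 arrays lay on either side of 0. The mean with HIPP was −1.82 ± 0.42 (SD, n = 5, adjusted p = 2.73e-07 in limma), or 28.3% of control. With P4 it was −1.48 ± 0.32 (SD, n = 5, adjusted p = 1.04e-05 in limma), or 35.8% of control. In shCtBP2 cells it was 0.02 ± 0.30 (SD, n = 5, adjusted p = 0.960 in limma). Both calls held in every alternative run.

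The 10 other H2B genes that passed with HIPP and the 10 that passed with P4 fell by less, and HIST1H2BA, HIST1H2BJ and HIST1H2BN had positive means with both. HIST1H2BB, which like the remaining H2B genes in this paragraph was named after its values were seen, had log2 ratios of −0.36, −0.89, −0.49, −0.18 and −0.60 with HIPP and of −0.95, −0.62, −0.48, −0.73 and −0.72 with P4. All 10 were negative, whereas the 5 shCtBP2 values (0.36, −0.09, 0.48, −0.28 and −0.03) lay around 0. Its means were −0.50 ± 0.27 with HIPP (SD, n = 5, adjusted p = 0.00323 in limma) and −0.70 ± 0.17 with P4 (SD, n = 5, adjusted p = 0.000667 in limma). With slide as a block its P4 value was −0.64 and did not pass. HIST1H2BG had the lowest HIPP mean after HIST1H2BK, −0.58 ± 0.23 (SD, n = 5, adjusted p = 0.000277 in limma), from array values of −0.64, −0.67, −0.71, −0.17 and −0.71. HIST3H2BB, outside the large HIST1 cluster, had −0.46 ± 0.26 with HIPP (SD, n = 5, adjusted p = 0.00102 in limma) and −0.35 ± 0.07 with P4 (SD, n = 5, adjusted p = 0.0116 in limma). Its P4 value with slide as a block was −0.28 and did not pass. HIPP replicate 4 lay nearer 0 than the other HIPP arrays for these genes, at −0.17 for HIST1H2BG and 7.07e-06 for HIST3H2BB. For HIST1H2BK the same array was at −1.69, within the range of the others. Without this array, 12 H2B genes passed with HIPP.

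**Figure D2:**
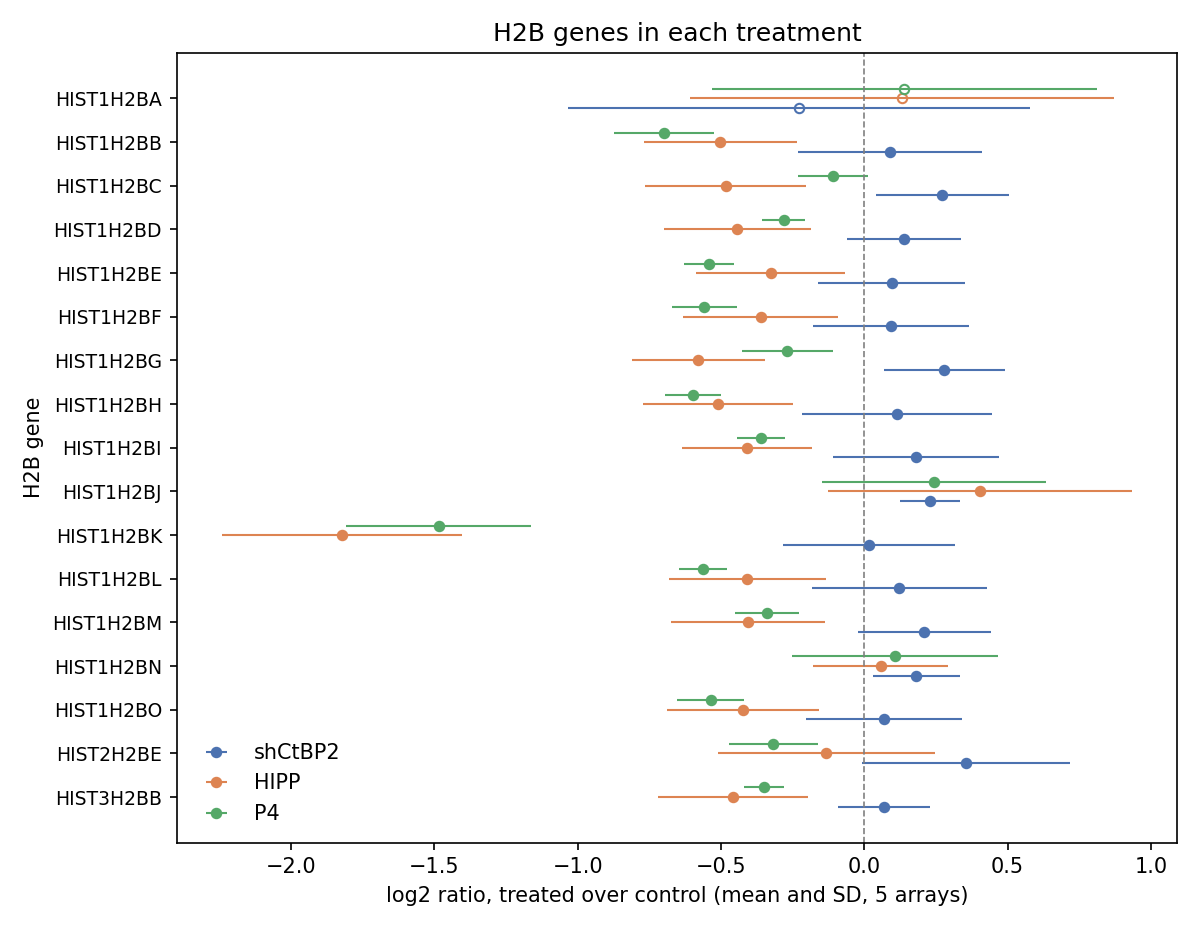
Mean log2 ratio of treated over control signal with SD (n = 5 arrays) for the 17 H2B genes under each treatment. HIST1H2BK is far lower than the others with HIPP and P4 (−1.82 and −1.48), and most other H2B genes lie below 0 with the inhibitors and at or above 0 in shCtBP2 cells; HIST1H2BA, shown hollow, was above background on no array.

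The lower H2B ratios were seen in both classes of probe by shared run. The run was measured between histone probes on the array, not against the transcripts of other histone genes. A short run therefore does not show that a probe reads 1 gene, and HIST1H2BG, in the lower class, shares 19 bases with a HIST1H2BD probe. Of the 10 H2B probes above background on every array that share 20 or more bases with a probe of another H2B gene, 10 were negative with HIPP (median −0.41), 10 with P4 (median −0.45) and 0 in shCtBP2 cells (median 0.15). Of the 8 that share fewer, 8 were negative with HIPP (median −0.54), 7 with P4 (median −0.35) and 2 in shCtBP2 cells (median 0.11). The 2 classes therefore had the same direction under each treatment. Without HIST1H2BK, the remaining 17 such probes had medians of −0.41 with HIPP, −0.36 with P4 and 0.14 in shCtBP2 cells.

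Some H2B genes had probes that disagreed. HIST1H2BJ and HIST1H2BN, singled out after their values were seen, each had 1 probe above background on every array and 1 at or below background on most. The dim probe of HIST1H2BJ was at 0.84 with HIPP and 0.37 with P4, and the bright one at −0.03 and 0.11. For HIST1H2BN the dim probe was at 0.46 and 0.44 and the bright one at −0.35 and −0.22. The positive mean of HIST1H2BJ with HIPP, and those of HIST1H2BN with either inhibitor, thus rest on dim probes. HIST1H2BD and HIST3H2BB are means of a probe on the strand of the gene and one annotated on the opposite strand. With HIPP both probes of each were negative, at −0.73 and −0.16 for HIST1H2BD and at −0.62 and −0.30 for HIST3H2BB, the lower value of each coming from the probe on the opposite strand.

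The ratios of H2B genes were also set out by the presence of the octamer. Among the 16 H2B genes above background, the median of the 12 with ATTTGCAT was −0.42 with HIPP, −0.45 with P4 and 0.15 in shCtBP2 cells. The median of the 4 without it was −0.43, −0.32 and 0.13. H2A genes, of which 11 of 14 hold the octamer, had medians of −0.05 with HIPP, −0.21 with P4 and 0.10 in shCtBP2 cells.

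Few H2A genes passed the test. With HIPP 3 of 10 tested were lower (30%) and 1 was higher (10%), against 23.9% and 24.9% of all genes. With P4 0 of 15 passed, with 4 lower at an unadjusted p under 0.05 and 0 called by the methods' t-test. In shCtBP2 cells 0 of 15 passed, with 2 higher at an unadjusted p under 0.05 and 0 by the methods' t-test. HIST2H2AC, named after its values were seen, was the highest histone gene with HIPP. Its log2 ratios were 0.07, 0.69, 0.25, 1.66 and 1.21 with HIPP, −0.19, −0.67, −0.01, −0.51 and −0.16 in shCtBP2 cells, and 0.22, −0.57, −0.24, 0.37 and 0.49 with P4. Every HIPP array lay above every shCtBP2 array, and the P4 arrays lay on either side of 0. Its HIPP mean was 0.77 ± 0.66 (SD, n = 5, adjusted p = 0.00588 in limma), and its 2 probes gave 0.75 and 0.79. In shCtBP2 cells its mean was −0.31 ± 0.27 (SD, n = 5, adjusted p = 0.354 in limma), and it passed as lower with slide as a block (−1.07, adjusted p = 0.0321 in limma). HIST1H2AE, also named after its values were seen, had −0.58 ± 0.41 with HIPP (SD, n = 5, adjusted p = 0.0113 in limma, and 0.0903 with slide as a block) and −0.46 ± 0.45 with P4 (SD, n = 5, adjusted p = 0.0505 in limma).

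Of the linker histones, 2 of 6 were higher in shCtBP2 cells at the adjusted threshold (33.3%, against 6.58% of all genes), 1 of 5 was lower with HIPP (20%, against 23.9%) and 3 of 6 were lower with P4 (50%, against 14.8%). HIST1H1C rose in shCtBP2 cells and fell with P4. Its probe lies on chromosome 6 from 26164029 to 26164088 (hg17, minus strand). The shCtBP2 arrays gave 0.84, 0.56, 0.77, 0.39 and 0.54, a mean of 0.62 ± 0.18 (SD, n = 5, adjusted p = 0.00489 in limma) and 154% of control. The P4 arrays gave −0.71, −1.21, −0.82, −0.86 and −0.83, a mean of −0.88 ± 0.19 (SD, n = 5, adjusted p = 0.000140 in limma) and 54.2% of control. The 2 groups of arrays did not overlap and had opposite signs. The HIPP arrays gave −0.32, −0.59, −0.49, −0.22 and −1.22, a mean of −0.57 ± 0.39 (SD, n = 5, adjusted p = 0.00168 in limma), which is lower than control and short of the HIPP fold-change threshold. The shCtBP2 call was lost without replicate 1 (0.56) or 3 (0.58), where the mean fell under the fold-change threshold, and with slide as a block (0.78, adjusted p = 0.0562 in limma). The P4 call was lost without replicate 2 (−0.80), with median centering (−0.76) and with the methods' t-test.

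HIST1H1D and HIST1H1E, 2 further somatic H1 genes, had positive means in shCtBP2 cells and negative means with P4. The array values of HIST1H1D were 0.60, −0.02, 0.87, 0.43 and 0.59 in shCtBP2 cells and −1.01, −1.21, −0.53, −0.45 and −0.77 with P4. All P4 arrays lay below all shCtBP2 arrays. Its means were 0.49 ± 0.33 (SD, n = 5, adjusted p = 0.0481 in limma) and −0.79 ± 0.32 (SD, n = 5, adjusted p = 0.00155 in limma). With HIPP its arrays were at −0.13, −0.36, −0.18, 0.65 and −0.30, and replicate 4 alone was positive. HIST1H1E had 0.50, −0.21, 0.62, 0.10 and 0.34 in shCtBP2 cells and −0.60, −1.15, −0.54, −0.33 and −0.57 with P4. It passed with P4 (−0.64 ± 0.31, SD, n = 5, adjusted p = 0.0135 in limma) and not in shCtBP2 cells (0.27 ± 0.33, SD, n = 5, adjusted p = 0.345 in limma), where its sign turned with slide as a block (−0.25). That block ended the P4 pass of HIST1H1E (−0.11, adjusted p = 0.830 in limma) and both passes of HIST1H1D (−0.49 with P4 and 0.17 in shCtBP2 cells, adjusted p = 0.295 and 0.709 in limma). HIST1H1E was not tested with HIPP, where its arrays ran from −0.30 to 1.02. HIST1H1A, HIST1H1B and HIST1H1T, the last a testis-specific H1, passed under no treatment and were not well above background on any array.

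**Figure D3:**
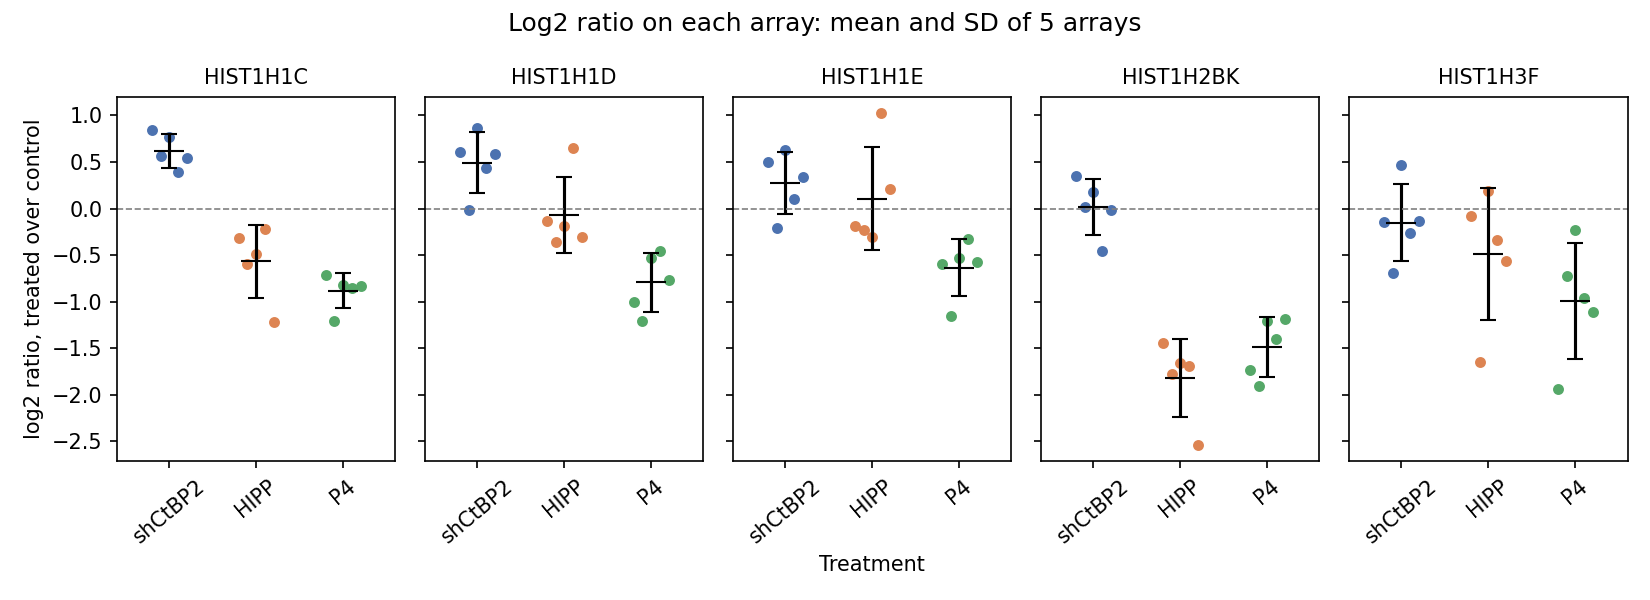
Log2 ratio of treated over control signal on each array (points) with mean and SD (n = 5) for HIST1H1C, HIST1H1D, HIST1H1E, HIST1H2BK and HIST1H3F under the 3 treatments. HIST1H1C lies above 0 on all shCtBP2 arrays and below 0 on all inhibitor arrays, and HIST1H2BK is below −1 on all inhibitor arrays.

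H3 genes were lower with P4 in 4 of 8 tested (50%, against 14.8% of all genes) and 0 were higher. HIST1H3F, on chromosome 6 from 26358567 to 26358626 (hg17, minus strand), had the lowest ratio of them. Its P4 arrays gave −1.94, −0.72, −0.24, −0.96 and −1.12, a mean of −0.99 ± 0.62 (SD, n = 5, adjusted p = 0.00724 in limma). The HIPP arrays gave −0.08, −1.64, 0.19, −0.34 and −0.56 and the shCtBP2 arrays −0.14, −0.70, 0.47, −0.26 and −0.13. All 5 P4 arrays were negative, but they overlapped with both other groups. The P4 call was lost without replicate 1 (−0.76), with slide as a block (−0.94, adjusted p = 0.246 in limma) and with the methods' t-test (adjusted p = 0.0576). With HIPP 1 of 8 tested H3 genes was higher and 1 lower (12.5% each, against 24.9% and 23.9% of all genes). The higher one, HIST1H3C, had 0.33 ± 0.23 (SD, n = 5, adjusted p = 0.0165 in limma). The lower one, HIST1H3G, was at −0.42 ± 0.28 (SD, n = 5, adjusted p = 0.0233 in limma) on the mean of 2 probes at 0.24 and −1.09, of which the latter was well above background on 0 of 5 HIPP arrays in the treated channel and on 3 in the control channel. In shCtBP2 cells 1 of 13 passed as higher (7.69%, against 6.58% of all genes), HIST1H3E, with 0.42, 0.36, 0.61, 0.17 and 0.33 and a mean of 0.38 ± 0.16 (SD, n = 5, adjusted p = 0.0384 in limma). Under the slide block none of these H3 genes passed as described, and HIST1H3C, HIST1H3I and HIST3H3 passed as higher in shCtBP2 cells instead. HIST1H3C, HIST1H3G and HIST1H3E were named after their values were seen.

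H4 genes had a negative mean ratio with P4 in 14 of 14 genes, from −0.79 to −0.10. Of these, HIST1H4E, at −0.79, was well above background on 0 of 5 P4 arrays in the treated channel and on 1 in the control channel, and HIST1H4G, at −0.46, on none. The 12 H4 genes above background on every array ran from −0.63 to −0.10. By the test, 4 of the 14 passed (28.6%, against 14.8% of all genes), and 0 with slide as a block, where the median of the 14 was 0.05. HIST1H4C, named after its values were seen, went from −0.62 (adjusted p = 0.0453 in limma) to 0.05 with that block (adjusted p = 0.942 in limma). With normexp correction and loess 13 of 14 were negative. The spread among H4 genes was wider in the other treatments, from −0.97 to 0.44 with HIPP and from −0.37 to 0.39 in shCtBP2 cells. HIST1H4A, named after its values were seen, was the lowest with HIPP, at −0.71, −1.27, −0.77, −0.44 and −1.64 on the 5 arrays. With P4 it had −1.12, −0.37, −0.15, −0.71 and −0.40, and in shCtBP2 cells 0.26, 0.09, 0.45, −0.14 and −0.10. The inhibitor arrays were all negative. Its means were −0.97 ± 0.48 with HIPP (SD, n = 5, adjusted p = 0.000210 in limma) and −0.55 ± 0.37 with P4 (SD, n = 5, adjusted p = 0.0199 in limma), which became −0.54 with slide as a block (adjusted p = 0.324 in limma). In shCtBP2 cells 0 of 14 H4 genes passed, with 3 higher at an unadjusted p under 0.05 and 0 by the methods' t-test.

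Since the inhibitors' ratios may share control extracts, no overlap between them is counted, and the values of further H2B genes that passed with each are given side by side. These genes too were named after their values were seen. Mean log2 ratios with HIPP and with P4 were −0.44 and −0.28 for HIST1H2BD, −0.51 and −0.60 for HIST1H2BH, and −0.41 and −0.36 for HIST1H2BI. They were −0.41 and −0.56 for HIST1H2BL, −0.41 and −0.34 for HIST1H2BM, and −0.42 and −0.54 for HIST1H2BO. In shCtBP2 cells the 6 means ran from 0.07 to 0.21, and none passed the test. With slide as a block the 6 genes still passed with HIPP, but not with P4. Their P4 values were then −0.25 (HIST1H2BD), −0.37 (HIST1H2BH), −0.21 (HIST1H2BI), −0.32 (HIST1H2BL), −0.16 (HIST1H2BM) and −0.28 (HIST1H2BO).

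**Figure D4:**
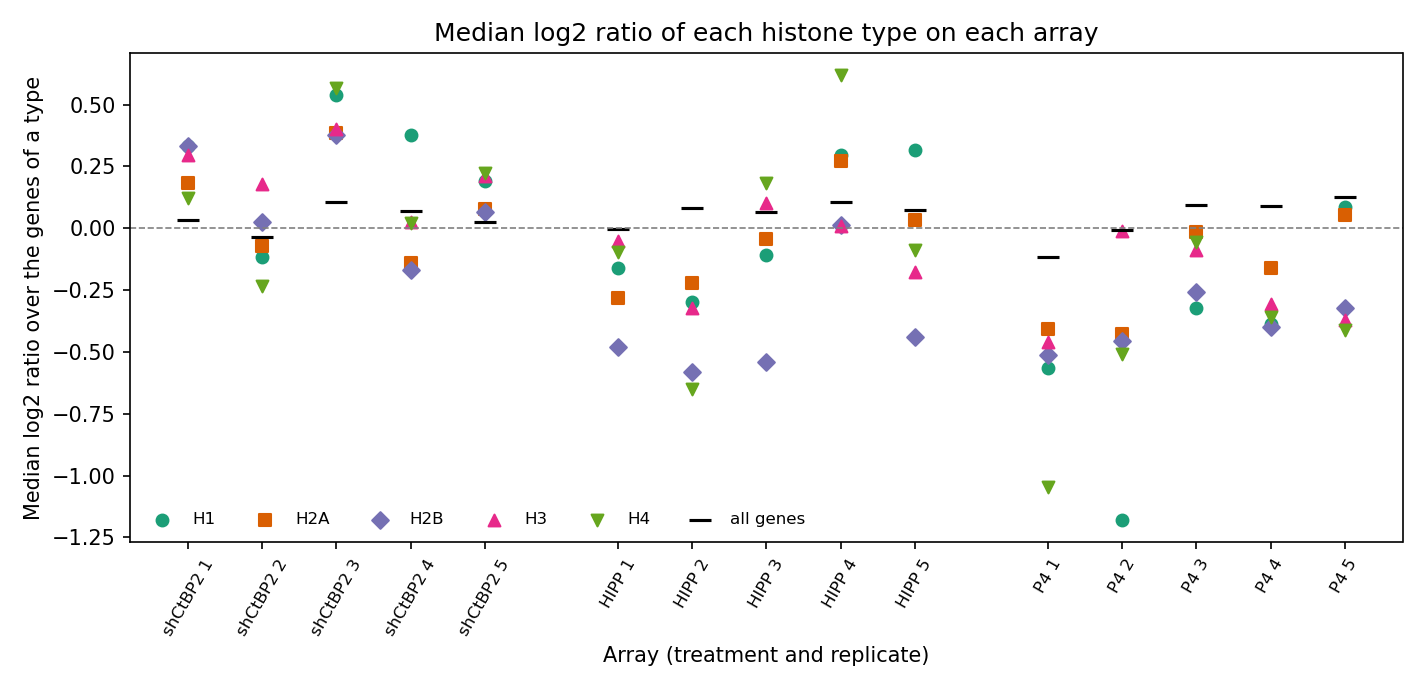
Median log2 ratio of the genes of each histone type on each of the 15 arrays, by treatment, with a dash for the median of all genes on the array. The H2B median is below 0 on 5 of 5 P4 arrays (−0.51 to −0.26) and on 4 of 5 HIPP arrays, with HIPP replicate 4 at 0.01.

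Array by array, the median of the 17 H2B genes was −0.48, −0.58, −0.54, 0.01 and −0.44 with HIPP and −0.51, −0.46, −0.26, −0.40 and −0.32 with P4. In shCtBP2 cells it was 0.33, 0.02, 0.38, −0.17 and 0.06. Over the 15 arrays the median of all genes ran from −0.12 to 0.12, so that 9 of 10 inhibitor arrays had an H2B median below that of any array over all genes.

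The differences between treatments were tested directly. Between HIPP and shCtBP2, 19 of 43 histone genes differed, against 26.4% of all genes, of which 18 were lower with HIPP (41.9%, against 14.1%). The 18 included 11 H2B genes, and HIST2H2AC was higher with HIPP by 1.08 ± 0.29 (log2, SE, adjusted p = 0.0120 in limma). HIST1H2BK was lower by 1.84 on the log2 scale in this comparison (−1.84 ± 0.22, SE, adjusted p = 2.26e-05 in limma) and HIST1H1C by 1.19 (−1.19 ± 0.18, SE, adjusted p = 0.000166 in limma). Between P4 and shCtBP2, 20 of 57 differed (35.1%, against 12.1% of all genes), all lower with P4 (against 5.92%). Fits that left out 1 array gave 8 to 23. HIST1H1C was at −1.50 ± 0.18 (SE, adjusted p = 9.52e-05 in limma) in that comparison, HIST1H2BK at −1.50 ± 0.22 (SE, adjusted p = 0.000467 in limma), HIST1H1D at −1.29 ± 0.22 (SE, adjusted p = 0.00156 in limma) and HIST1H1E at −0.91 ± 0.25 (SE, adjusted p = 0.0289 in limma). The 5 P4 arrays lay wholly below the 5 shCtBP2 arrays for 21 of 65 histone genes (against 6.87% of all genes), 13 of them H2B. The 5 HIPP arrays did so for 5 of 65 (against 12.1%).

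The arrays lay on 4 slides, and treatment was partly confounded with slide. P4 replicates 1 to 4, on slide 1, were scanned on a different day from all other arrays. Scan day and P4 therefore cannot be fully told apart, and the part of scan day in the ratios was not tested. Slide 3 held HIPP replicates 4 and 5 beside shCtBP2 replicates 1 and 2. On it HIPP minus shCtBP2 was −2.30 for HIST1H2BK, −1.42 for HIST1H1C, 1.87 for HIST2H2AC and −0.39 for the H2B median. These 4 differences had the sign found over all arrays. Others on the slide did not. HIPP minus shCtBP2 was 0.47 there for HIST1H1E, against −0.17 over all arrays, and 0.20 for the H1 median, 0.10 for H2A and 0.32 for H4, whereas the HIPP medians of these types over all arrays lay below those of shCtBP2. Slide 2 held HIPP replicates 1 to 3 beside P4 replicate 5. There, HIPP minus P4 was −0.44 for HIST1H2BK and 0.36 for HIST1H1C, as over all arrays in sign, and −0.15 for HIST2H2AC, against 0.72 over all arrays. The H1 and H2A medians also differed by −0.27 and −0.23 there, against median differences of 0.26 and 0.14 over all arrays. With slide as a block, 9 histone genes differed between HIPP and shCtBP2. In that fit HIPP minus shCtBP2 rests on slide 3 alone, and HIPP minus P4 on slide 2 alone, with 1 P4 array. No slide held both P4 and shCtBP2, and with the block 0 differed between them, so for this pair slide and treatment cannot be fully told apart. The counts with the block are given without the share of all genes under it, and do not show a loss particular to histone genes. With normexp correction and loess, 5 histone genes differed between HIPP and shCtBP2.

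Between the 2 inhibitors, 1 of 37 histone genes differed (against 10.6% of all genes), as treated, with doses that the labels do not state. It was HIST1H1D, higher with HIPP than with P4 by 0.73 on the log2 scale (95% interval 0.26 to 1.19, adjusted p = 0.0479 in limma). With slide as a block the difference was 0.54, which rests on 3 HIPP arrays and 1 P4 array of slide 2, and was not called. In 9 of the 10 fits that left out 1 array of either inhibitor, 0 histone genes differed. For HIST1H2BK the difference was −0.34 (95% interval −0.80 to 0.13), for HIST1H1C 0.32 (−0.06 to 0.70) and for HIST1H2BB 0.20 (−0.17 to 0.56). These intervals hold both equal levels and differences of some size, and do not show that the oxime and the hydrazone act alike.

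Other genes of histone biology were counted from 4 lists. Of 16 histone variants outside the clusters on the array, CENPA, the centromeric H3 variant, was the only one differentially expressed, in shCtBP2 cells (−0.60 ± 0.13, SD, n = 5, adjusted p = 0.00229 in limma). CENPA was also lower at the adjusted threshold with HIPP (−0.91) and P4 (−0.57). It lost its shCtBP2 call without replicate 4 (−0.58) or 5 (−0.56), with normexp correction and loess (−0.56), and with slide as a block (−0.60, adjusted p = 0.084 in limma). At the adjusted threshold, of 13 variants tested in shCtBP2 cells, 0 were higher (against 6.58% of all genes) and 1 lower (7.69%, against 6.92%). Of 14 tested with HIPP, 3 were higher (21.4%, against 24.9%) and 6 lower (42.9%, against 23.9%). Of 14 tested with P4, 2 were higher (14.3%, against 17.0%) and 3 lower (21.4%, against 14.8%). Of 22 genes of histone mRNA transcription and 3′ processing, 0 were differentially expressed under any treatment by limma or by the methods' t-test. With slide as a block, limma called 2 in shCtBP2 cells and 2 with P4. At the adjusted threshold, of 14 tested in shCtBP2 cells, 0 were higher (against 6.58%) and 2 lower (14.3%, against 6.92%). Of 16 tested with HIPP, 4 were higher (25%, against 24.9%) and 6 lower (37.5%, against 23.9%). Of 15 tested with P4, 2 were higher (13.3%, against 17.0%) and 4 lower (26.7%, against 14.8%). SLBP, named after its values were seen, was at −0.59 ± 0.43 with HIPP (SD, n = 5, adjusted p = 0.00255 in limma), at −0.61 ± 0.19 with P4 (SD, n = 5, adjusted p = 0.00407 in limma) and at −0.04 ± 0.18 in shCtBP2 cells (SD, n = 4).

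Of 29 histone chaperones and assembly factors on the array, 23 were tested with HIPP, where 15 were lower (65.2%, against 23.9% of all genes) and 2 higher (8.70%, against 24.9%) at the adjusted threshold. With P4 13 of 20 tested were lower (65%, against 14.8%) and 0 higher (against 17.0%). In shCtBP2 cells 1 of 21 was lower (4.76%, against 6.92%) and 1 higher (4.76%, against 6.58%). NAP1L1, which carries H2A and H2B to nucleosomes, was the only one differentially expressed in the fit without slide, with HIPP (−1.58 ± 0.18, SD, n = 5, adjusted p = 3.09e-08 in limma). It was at −0.72 ± 0.30 with P4 (SD, n = 5, adjusted p = 0.000155 in limma). Of 49 S phase and replication genes on the array, 41 were tested with HIPP, where 29 were lower (70.7%, against 23.9%) and 4 higher (9.76%, against 24.9%). With P4 17 of 38 tested were lower (44.7%, against 14.8%) and 1 higher (2.63%, against 17.0%), and in shCtBP2 cells 9 of 33 were lower (27.3%, against 6.92%) and 1 higher (3.03%, against 6.58%). The list medians were −0.44, −0.19 and −0.12, against 0.08, 0.11 and 0.04 over all genes tested. POLE2, a subunit of DNA polymerase epsilon, was differentially expressed with HIPP (−1.49 ± 0.56, SD, n = 5, adjusted p = 3.27e-05 in limma) and P4 (−1.04 ± 0.62, SD, n = 5, adjusted p = 0.00174 in limma). FEN1, the flap endonuclease of lagging-strand synthesis, was called with P4 (−0.93 ± 0.24, SD, n = 5, adjusted p = 8.27e-06 in limma). In shCtBP2 cells DTL (−0.66 ± 0.18, SD, n = 5, adjusted p = 0.00204 in limma) and CCNA2, which encodes cyclin A2 (−0.61 ± 0.16, SD, n = 5, adjusted p = 0.00233 in limma), were lower. Fewer cells in S phase and less mRNA per cell cannot be told apart in bulk RNA, and the part of either in the histone ratios was not tested. With slide as a block, 3 chaperone genes were differentially expressed with P4, 1 with HIPP and 1 in shCtBP2 cells. Calls that 1 array decided were POLE2 with P4 (−0.84 without replicate 1), FEN1 with P4 (−0.85 without replicate 5), and DTL (−0.58) and CCNA2 (−0.56) without shCtBP2 replicate 2. After normexp correction and loess the calls of POLE2 with HIPP (−1.31) and of DTL (−0.57) and CCNA2 (−0.52) in shCtBP2 cells were lost. POLE2 with P4 was not called by the methods' t-test, nor CCNA2 with slide as a block (−0.60, adjusted p = 0.0839 in limma).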

How the data were processed

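The data were 15 two-color hybridizations of MDA-MB231 RNA, 5 for each treatment. The authors corrected background and dye bias in Feature Extraction and deposited spot intensity values for each channel, log10 ratios per spot, and a series table of log10 ratios, which equals the scanner ratios within 0.005. Labelling kits of this kind usually start from the poly(A) tail, which most clustered histone mRNAs lack; how far this shaped the histone signal was not tested. Here, log2 of the processed Cy5 over Cy3 intensity was taken. Control spots and the 78 to 265 outlier or non-uniform spots per array were left out, probes of a gene name were averaged, genes needed 3 of 5 arrays, and the 11% with the lowest interquartile range were removed. Ratios and their differences were tested with limma 3.58.1 (R 4.3.3), all 15 arrays in one fit, with Benjamini-Hochberg adjustment over all genes tested (27574 per treatment). Tested on simulated data for HIPP with 30856 genes, 200 of them changed, the procedure recovered 84% of the changes of 1 and 100% of those of 2 on the log2 scale, and called 10 unchanged genes. For HIPP minus P4 it recovered 61% and 97%, and called 8. The simulated noise was independent between arrays, only genes above the median intensity were changed, and the filter on variability was off. These rates need not hold for the real arrays. The number of arrays limits the precision. Replicates are called biological by the labels.

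Genes named were every H1 gene, the 3 highest and 3 lowest called histone genes of each treatment with 1 direction on all arrays, histone genes called in 2 or more treatments, the 2 called genes per treatment of each other list with the largest change, and CTBP2. Others are marked as named after their values were seen. The members and gene lists were chosen with earlier results of these data known. Motifs and promoters came from RefSeq sequences of GRCh38.p14. Probe positions are those of the array annotation (hg17), which does not say which part of a transcript a probe lies in. Alternatives were normexp (offset 50) with loess, median centering, the deposited table, filters, probe choice, slide and replicate blocks, separate fits, the methods' t-test, fold-change thresholds and leaving out arrays.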

Additional observations from a re-analysis of the deposited data

Results flagged for a closer look

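In 7 of 76 groups of 5 arrays checked, 1 array lay far from the other 4, where chance alone gives about 1 in 20. HIPP replicate 4 was the far array for HIST1H1D (0.647), HIST1H2BD (0.00283), HIST1H2BG (−0.165), HIST3H2BB (7.07e-06) and the median of the H2B genes (0.0112), in each case above the other HIPP arrays. P4 replicate 2 was far below the others for HIST1H1C (−1.21), and shCtBP2 replicate 2 for DTL (−0.967). The share of gene spots well above background on HIPP replicate 4 was 69.5% in the treated channel and 77.1% in the control channel, and the array had 178 outlier or non-uniform spots. The part of these in its H2B values was not tested.

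The log2 ratios of named histone genes differed between treatments at the adjusted threshold of limma. Between HIPP and shCtBP2, HIST1H1C (−1.19), HIST1H2BK (−1.84), HIST1H2AE (−0.803), HIST1H2BB (−0.592), HIST1H2BD (−0.581), HIST1H2BG (−0.858), HIST3H2BB (−0.528) and HIST1H4A (−1.08) were lower with HIPP, and HIST2H2AC (1.08) was higher. Between P4 and shCtBP2, HIST1H1C (−1.5), HIST1H1D (−1.29), HIST1H1E (−0.909), HIST1H2BK (−1.5) and HIST1H2BB (−0.789) were lower with P4. Between HIPP and P4, HIST1H1D (0.725) was higher with HIPP. No slide held both P4 and shCtBP2 arrays.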

How the results depend on the processing

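Of the counts of histone genes under alternatives, 169 lay within 1.5 times the count reported and 56 did not. Of 192 counts of the other gene lists, 161 lay within it and 31 did not. Of the medians over all 65 genes, 44 of 45 moved by less than the replicate spread. The exception was P4 with slide as a block (−0.16). Medians by histone type were not among these, and several changed sign with that block, such as H4 in shCtBP2 cells (0.13 to −0.44) and H1 with P4 (−0.43 to 0.29). Differentially expressed genes numbered 4 with HIPP and 8 with P4 at 1.5-fold for all treatments, and 3 (shCtBP2), 19 (HIPP) and 22 (P4) with no fold-change threshold. The methods' t-test left 1 with P4, and at the adjusted threshold 3 histone genes with HIPP (2 H2B) and 7 with P4 (4 H2B). With slide as a block, shCtBP2 gave 5 differentially expressed and 5 past the adjusted threshold (HIST1H1B, HIST1H3C, HIST1H3I, HIST2H2AC and HIST3H3, without HIST1H1C), the shCtBP2 median of the 65 genes was −0.0058, P4 gave 2 past it (1 H2B), and 9 genes differed between HIPP and shCtBP2, 0 between P4 and shCtBP2 and 0 between HIPP and P4. With normexp and loess, 6 histone genes passed with HIPP (3 H2B) and 5 differed between HIPP and shCtBP2. With median centering, 2 were differentially expressed in shCtBP2 cells, 1 H2B gene passed there, and 13 genes differed between P4 and shCtBP2 and 0 between HIPP and P4. Fits of single treatments gave 6 past the adjusted threshold for shCtBP2 and 12 for P4 (7 H2B), and 0 differed between HIPP and P4. The brightest probe gave 5 for shCtBP2, and each probe alone gave 5 for shCtBP2 and 29 for HIPP.

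Leaving out each array in turn gave 0 to 2 differentially expressed genes in shCtBP2 cells and 1 to 2 past the adjusted threshold, 12 to 22 genes that differed between HIPP and shCtBP2, 8 to 23 between P4 and shCtBP2, and 0 to 1 between HIPP and P4. Of 928 values of 22 named genes, 20 changed sign, all for ratios that had not passed the threshold, whereas HIST1H4C with P4, not among the 22, had passed and turned positive with slide as a block (0.05). Those that turned with normexp and loess were HIST1H1D with HIPP (0.021) and HIST1H2BK in shCtBP2 cells (−0.0025). Blocking on slide turned HIST1H1D with HIPP (0.049) and, in shCtBP2 cells, HIST1H1E (−0.25) and HIST3H2BB (−0.0058), and under slide as a random block HIST1H2BK in shCtBP2 cells (−0.0026). With median centering they were HIST1H1E with HIPP (−0.057), HIST1H2BK in shCtBP2 cells (−0.022), HIST1H3C with P4 (0.13) and HIST1H3E with HIPP (−0.039), and with the brightest probe HIST1H2BD (−0.029) and HIST3H2BB (−0.00041) in shCtBP2 cells. Over the left-out arrays, HIST1H1D with HIPP ran from −0.25 to 0.0066, HIST1H1E with HIPP from −0.13 to 0.20, HIST1H3E with HIPP from −0.040 to 0.20, HIST2H2AC with P4 from −0.051 to 0.21, HIST1H2BK in shCtBP2 cells from −0.068 to 0.13 and HIST1H2BB there from −0.0086 to 0.18.

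The labels give no shared source for a replicate number, and pairing was accepted only if every same-numbered pair had a correlation over 0.1. This held for 13 of 15 pairs (r from −0.03 to 0.47), and in 6 of them the partner was the array of the other group that correlated best, so the arrays were not treated as paired. With the replicate block, 3 histone genes differed between HIPP and P4. Slide as a random block and leaving out genes above background on no array were chosen after the data were seen.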
